A study of Mus musculus with 19 samples.

Results

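The 9 genes Meiosin, Stag3, Smc1b, Rec8, Sycp3, Sycp1, Syce2, Zcwpw1 and Tdrd1 are meiosis and germline genes read in tongue epithelium of mice that switch on the E6 and E7 oncogenes of human papillomavirus type 16, a constitutively active YAP, both, or neither. They were read in the deposited table of TPM values, which divide reads by gene length and depth, and they were chosen by their values in E6-E7 mice against control mice, with results of these data known. That contrast, and the contrast of mice with both transgenes against the same controls, is therefore given as a description with no test. All 9 genes passed the filter on low values (at least 0.1 TPM in at least 3 mice), and 6 of them were higher in every E6-E7 mouse than in every control mouse. Sycp1, Sycp3 and Rec8 were not, so that the working name of the set, germline genes induced by E6-E7, does not describe them. For the other 6 the name restates the contrast that chose the genes.

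Meiosis is the pair of divisions by which germ cells reduce their chromosome number, and many of its genes are normally silent in body tissues such as tongue epithelium. At entry into meiosis the transcription factors STRA8 and MEIOSIN switch on genes that rebuild the chromosomes: cohesin rings take up meiosis-specific subunits, the chromosomes break and repair their DNA by recombination, and the synaptonemal complex zips homologous chromosomes together. Many of these genes are held shut outside the germline by DNA methylation and by the repressor complex PRC1.6, which contains E2F6, MGA and MAX. The viral protein E7 binds and disables the retinoblastoma pocket proteins, which frees E2F factors, and E6 directs p53 to degradation.

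The study asked how YAP and the viral oncogenes turn oral epithelial progenitors into carcinoma, and polyA RNA was sequenced from whole tongue epithelium at day 15 after induction in 19 mice. In each transgenic group a tamoxifen-dependent Cre recombinase under the Krt14 promoter acts in the basal, KRT14-positive cells after injection of tamoxifen into the tongue, it opens an LSL-rtTA cassette, and doxycycline chow then lets rtTA drive the tetON effectors. The 5 E mice carry Krt14-CreERT, LSL-rtTA and tetON_E6-E7. The 3 Y mice carry tetON_YAP1S127A in place of tetON_E6-E7, and the 6 EY mice carry both effectors. The 5 N mice are controls of mixed genotype per the labels: N mice 1 to 3 carry Krt14-CreERT and LSL-rtTA, N mouse 4 carries LSL-rtTA with no Cre, and N mouse 5 carries Krt14-CreERT with both effectors and no rtTA. The study's methods state that every group also carries a tetON H2B-GFP reporter and that littermates were put into groups balanced for age and sex. The transgenes themselves are not among the genes of the table.

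Between 8269674 and 11007304 reads per mouse stood behind the TPM values. The 9 listed markers of stratified oral epithelium summed to between 54021.9 TPM, in EY mouse 5, and 152695 TPM, in N mouse 1, with Krt13, a keratin of the suprabasal layers, the highest in deposited TPM in each group and no listed marker at 0 throughout a group. Krt14, the basal keratin that drives Cre, had means of 6048, 7789, 15605 and 16718 TPM (order N, E, Y, EY). The 9 listed markers of male germ cells, of which 4 were in the table, summed to between 0.267 TPM, in E mouse 2, and 1.88 TPM, in EY mouse 3. The 4 include Sycp3 and Sycp1, which make up most of each sum and are among the 9 genes, so the sums partly restate them. Ddx4, the helicase that defines germ cells, had 1 read over the N mice, 17 over E, 2 over Y and 23 over EY. E mouse 4 holds 16 of the 17 and EY mouse 3 holds 16 of the 23. The sperm protamine gene Prm1 had 0 reads over N and Y, 5 over E and 2 over EY. Of 5 oocyte markers 2 were in the table, and the sum of Gdf9 and Zp2 lay between 0 and 0.596 TPM.

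A call below means an adjusted p under 0.01 and an absolute log2 fold change above 1 in limma, on log2(TPM + 0.1), among the 22745 genes that passed the filter. The deposited TPM were made with the length of the whole gene, introns included: 98.56% of 23804 genes lay within 0.1 log2 of the median ratio with that length, and 4.436% with the summed exon length. The added 0.1 TPM therefore stands for 18.3 reads of the long gene Sycp1, 10.5 of Smc1b and 1.15 of Rec8, and it shrinks the log2 fold changes of long genes the most. Levels of different genes, other than cell type markers, are compared below in TPM recomputed from the reads with exon length.

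Meiosin encodes the partner of STRA8 in starting meiosis. In TPM it stood at 0, 0, 0, 0.0509 and 0.115 in N mice 1 to 5, 3.40, 5.97, 9.25, 14.7 and 13.99 in E mice 1 to 5 and 0.0746, 0.131 and 0.0676 in Y mice 1 to 3, and in the 6 EY mice it ran from 5.02 through a median of 9.41 to 13.1. The N and Y mice had 0 to 4 reads each and the E and EY mice 120 to 431, so that the E and EY mice lay apart from the N and Y mice.

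Stag3 and Smc1b encode meiosis-specific subunits of cohesin, the ring that holds sister chromatids together. Stag3 stood at 0.230, 0.273, 0.438, 0.168 and 0.190 TPM in N mice 1 to 5, 7.85, 11.5, 16.7, 15.4 and 21.5 in E mice 1 to 5, 0.0449, 0.178 and 0.244 in Y mice 1 to 3, and between 15.9 and 25.3 with a median of 20.2 in EY. Smc1b stood at 0.00847, 0, 0.00951, 0 and 0.0495 TPM in N, 0.651, 0.847, 1.13, 0.944 and 1.35 in E, 0.0429, 0 and 0 in Y, and between 0.352 and 1.36 with a median of 0.460 in EY. For both genes every E and EY mouse was above every N and Y mouse, and 2 EY mice, mice 3 and 4, stood above the other 4 in Smc1b, at 1.36 and 1.07 TPM.

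Rec8 encodes the kleisin that closes the meiotic cohesin ring, and it went a different way. It stood at 0.929, 14.9, 2.00, 1.27 and 3.99 TPM in N mice 1 to 5, 2.16, 2.91, 0.896, 0.454 and 0.256 in E mice 1 to 5, 0.196, 0 and 0 in Y mice 1 to 3, and between 0.0804 and 1.39 with a median of 0.484 in EY. N mouse 2 was by far the highest, the E mice overlapped the N mice, and 2 of the 3 Y mice had no read.

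The synaptonemal complex has an axis, to which SYCP3 belongs, transverse filaments made of SYCP1, and a central element that holds SYCE2. Syce2 stood at 1.34, 2.58, 1.87, 1.62 and 2.24 TPM in N mice 1 to 5, 2.86, 7.08, 5.57, 6.39 and 8.48 in E mice 1 to 5, 3.49, 5.20 and 4.50 in Y mice 1 to 3, and between 21.4 and 32.7 with a median of 29.4 in EY. Every EY mouse was above every other mouse, and the Y mice lay above the N mice and within the range of E. In the order N, E, Y, EY the TPM of Sycp1 ranged over 0 to 0.324, 0.0771 to 0.240, 0.0594 to 0.117 and 0.109 to 0.511, and that of Sycp3 over 0.334 to 0.983, 0.190 to 1.42, 0.211 to 0.511 and 0.246 to 1.35. Their 4 groups overlapped.

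Zcwpw1 encodes the reader of the histone marks that PRDM9 sets at recombination hotspots. It stood at 0.344, 0.252, 0.257, 0.0848 and 0.207 TPM in N mice 1 to 5, 6.35, 10.01, 11.7, 11.1 and 13.1 in E mice 1 to 5, 0.207, 0.602 and 0.300 in Y mice 1 to 3, and between 5.49 and 13.8 with a median of 10.4 in EY. Tdrd1, a scaffold of the germ granule in which piRNAs are made, stood at 0.898, 0.776, 0.555, 0.180 and 0.165 TPM in N, 1.51, 2.75, 3.73, 3.57 and 4.95 in E, 0.263, 0 and 0.0895 in Y, and between 2.51 and 6.48 with a median of 5.00 in EY. For both genes the E and EY mice lay above the N and Y mice with no overlap, and Tdrd1 was higher in N mice 1 to 3 (0.555 to 0.898) than in N mice 4 and 5 and the Y mice (0 to 0.263).

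**Figure D1:**
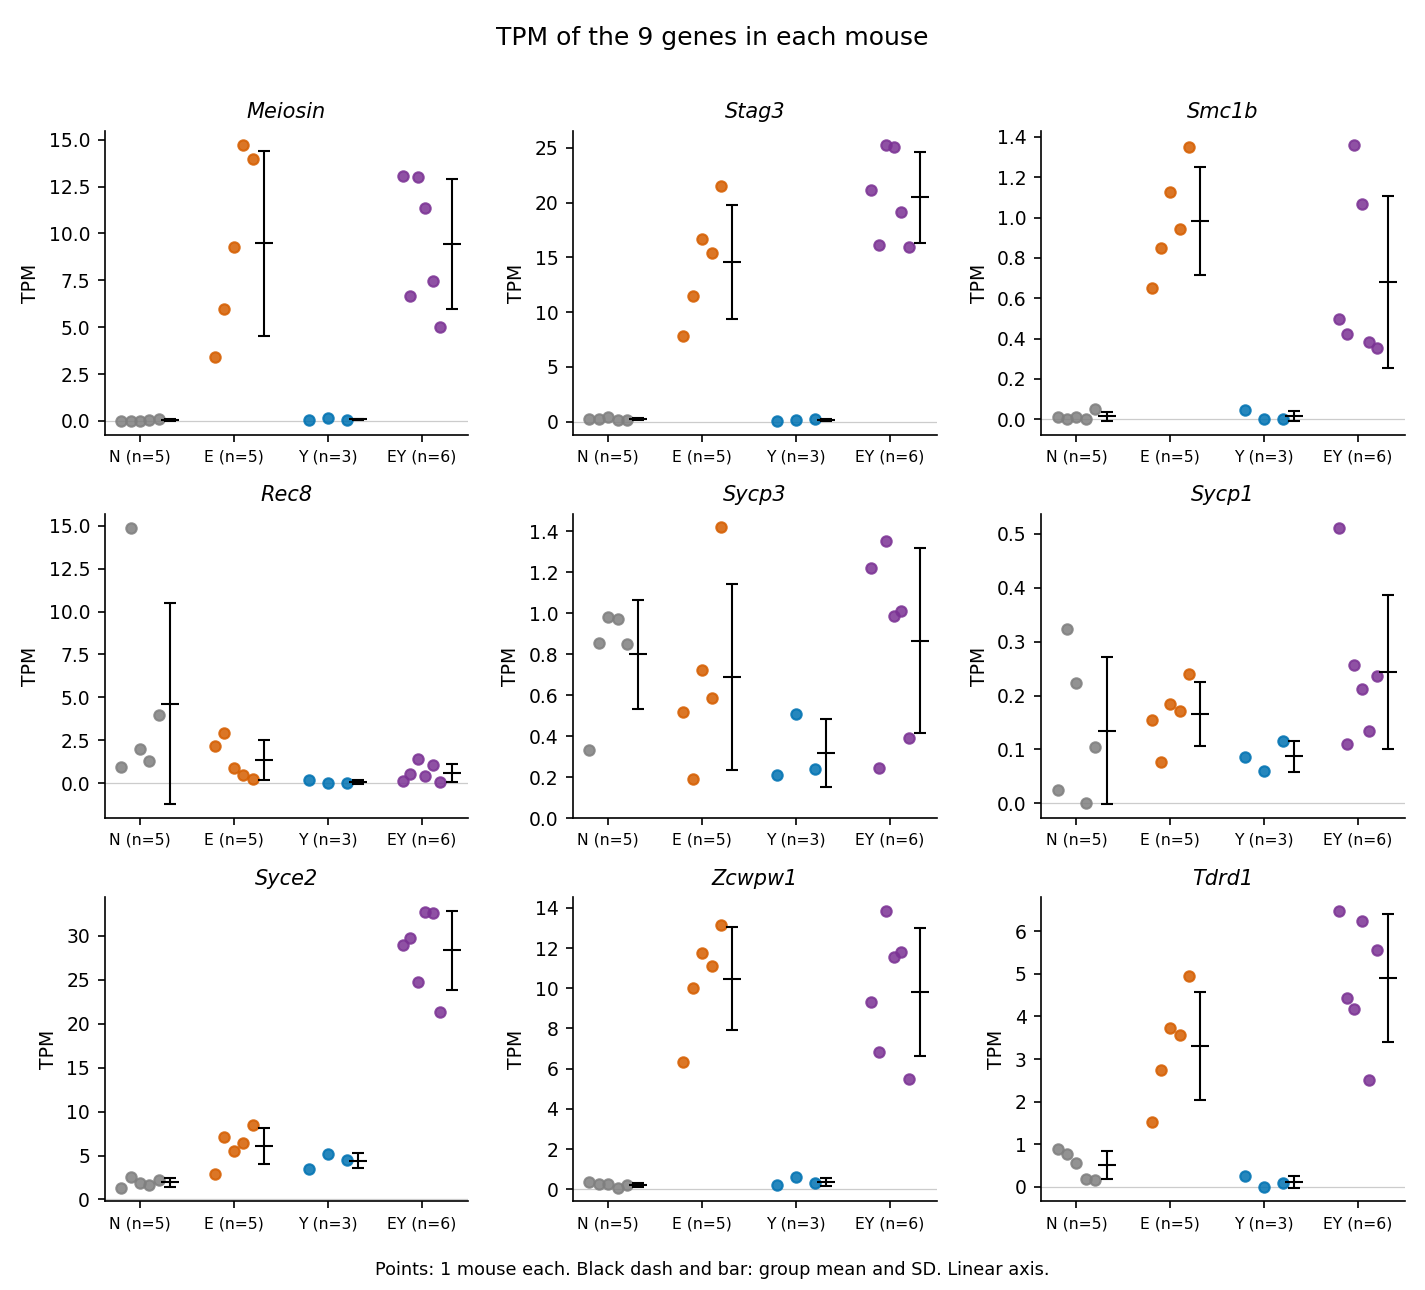
TPM (vertical axes, linear) of the 9 genes in each of the 19 mice by group, with the group mean and SD. Meiosin, Stag3, Smc1b, Zcwpw1 and Tdrd1 are higher in each E and EY mouse than in each N and Y mouse, Syce2 is highest in EY (21.4 to 32.7), Rec8 is highest in N, and the groups of Sycp1 and Sycp3 overlap.

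The promoters of the 6 genes that were high in E and EY are shown because these genes are high in the same mice, with that of Sycp3, which holds the same kinds of letters and whose groups overlap. The RefSeq promoter table (build GRCm38.p6, 250 bases before to 50 after a start) holds 13 promoters of the 9 genes, Meiosin under the name Bhmg1, and all 9 matched. The windows shown, with strand, are chr7:19118295-19118594 (-) for Meiosin, chr5:138280259-138280558 (+) for Stag3, chr15:85131908-85132207 (-) for Smc1b, chr8:84872008-84872307 (+) for the second of the 2 of Syce2, chr5:137787081-137787380 (+) for the first of the 2 of Zcwpw1, chr19:56825959-56826258 (+) for the first of the 3 of Tdrd1 and chr10:88459337-88459636 (+) for Sycp3. Capitals mark 4 motifs searched on both strands: the E2F core GCGGGA, the 8-letter E2F site GGCGGGAA, which overlaps the core, the E-box CACGTG, bound by MAX heterodimers, and the T-box site AGGTGTGA. The E2F core is in 8 of the 13 promoters and in those of 7 of the 9 genes (not of Zcwpw1 or Tdrd1). It is in 20.0% of all 32851 promoters of this length and 22.0% of their 27025 genes. The 8-letter E2F site is in promoters of Meiosin and Syce2, beside 2.19% of all promoters and 2.52% of all genes. The E-box is in 7 of the 13 promoters, those of 6 of the 9 genes (not of Zcwpw1, Smc1b or Rec8), beside 7.15% of all promoters and 8.09% of all genes. The first 2 windows of Tdrd1 overlap and hold the same E-box. The T-box site is in the promoter of Sycp3, beside 1.28% of all promoters and 1.48% of all genes. The 13 promoters hold a median of 21 CG dinucleotides and all promoters a median of 7. A match describes the letters and is neither a binding site nor a cause, and the promoters of Sycp1, Sycp3 and Rec8 hold the E2F core as well.
Meiosin: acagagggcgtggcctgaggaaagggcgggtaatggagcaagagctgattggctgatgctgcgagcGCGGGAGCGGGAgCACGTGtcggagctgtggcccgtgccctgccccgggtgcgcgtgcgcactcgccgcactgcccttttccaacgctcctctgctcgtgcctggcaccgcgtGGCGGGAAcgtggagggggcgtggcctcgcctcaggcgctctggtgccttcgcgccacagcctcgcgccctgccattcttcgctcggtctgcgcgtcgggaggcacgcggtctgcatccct
Stag3: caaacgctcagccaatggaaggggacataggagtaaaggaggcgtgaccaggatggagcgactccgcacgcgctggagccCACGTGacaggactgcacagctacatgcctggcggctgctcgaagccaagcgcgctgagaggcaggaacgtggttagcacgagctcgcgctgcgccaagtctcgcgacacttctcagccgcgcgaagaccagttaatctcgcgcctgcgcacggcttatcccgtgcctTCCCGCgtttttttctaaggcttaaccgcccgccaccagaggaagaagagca
Smc1b: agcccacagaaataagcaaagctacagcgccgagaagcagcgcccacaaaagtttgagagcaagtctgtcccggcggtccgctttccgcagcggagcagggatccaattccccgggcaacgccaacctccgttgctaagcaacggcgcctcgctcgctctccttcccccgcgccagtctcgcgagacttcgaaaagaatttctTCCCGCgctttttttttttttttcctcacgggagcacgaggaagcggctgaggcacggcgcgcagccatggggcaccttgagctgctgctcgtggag
Syce2: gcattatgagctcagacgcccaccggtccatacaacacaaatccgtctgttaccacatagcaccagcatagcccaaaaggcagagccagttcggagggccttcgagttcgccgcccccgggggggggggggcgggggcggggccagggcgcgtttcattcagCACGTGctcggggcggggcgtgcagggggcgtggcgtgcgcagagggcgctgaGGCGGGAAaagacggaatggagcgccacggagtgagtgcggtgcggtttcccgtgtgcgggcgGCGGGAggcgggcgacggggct
Zcwpw1: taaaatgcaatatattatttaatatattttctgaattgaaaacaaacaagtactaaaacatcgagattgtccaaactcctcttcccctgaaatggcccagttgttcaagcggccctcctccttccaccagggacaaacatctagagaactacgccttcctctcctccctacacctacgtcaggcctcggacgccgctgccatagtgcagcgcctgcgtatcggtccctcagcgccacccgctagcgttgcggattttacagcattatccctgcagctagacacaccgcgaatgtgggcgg
Tdrd1: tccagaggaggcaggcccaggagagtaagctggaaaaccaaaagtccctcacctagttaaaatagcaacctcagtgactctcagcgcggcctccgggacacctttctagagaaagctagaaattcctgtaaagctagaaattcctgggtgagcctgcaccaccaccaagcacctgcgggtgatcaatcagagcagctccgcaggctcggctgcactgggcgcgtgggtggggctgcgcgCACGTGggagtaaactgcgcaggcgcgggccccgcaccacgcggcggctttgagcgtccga
Sycp3: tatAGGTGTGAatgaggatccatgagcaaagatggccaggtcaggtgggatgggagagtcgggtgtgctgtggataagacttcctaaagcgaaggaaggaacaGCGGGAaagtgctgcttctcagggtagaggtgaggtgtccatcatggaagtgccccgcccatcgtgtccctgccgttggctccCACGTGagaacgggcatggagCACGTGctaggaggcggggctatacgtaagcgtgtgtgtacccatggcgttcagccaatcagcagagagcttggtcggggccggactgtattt

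E against N chose the genes, and its values describe them. The mean TPM of E was 286 times that of N for Meiosin (9.47 ± 4.93 against 0.0331 ± 0.0507, SD, n = 5 and 5), 73.0 times for Smc1b, 56.1 times for Stag3, 45.7 times for Zcwpw1, 6.42 times for Tdrd1 and 3.15 times for Syce2. On the log2 scale with 0.1 TPM added these were 6.05, 3.24, 5.32, 5.02, 2.58 and 1.55. Sycp1, Sycp3 and Rec8 had log2 fold changes of 0.35, -0.31 and -1.42. By the thresholds of a call 6 of the 9 were higher and 0 lower, where 1.16% of all genes tested were higher and 0.0440% lower, and nothing is read from this since the contrast selected the genes. For the same reason EY against N is given as values alone: the log2 fold changes were 6.15 for Meiosin, 5.86 for Stag3, 4.90 for Zcwpw1, 3.83 for Syce2, 3.17 for Tdrd1, 2.64 for Smc1b, 0.67 for Sycp1, -0.00 for Sycp3 and -2.44 for Rec8. There 6 of the 9 were past the thresholds upwards and 0 downwards, beside 12.6% and 5.71% of all genes, or 6.77% and 8.67% after median-of-ratios scaling, when Rec8 was past the threshold downwards (-2.74). The median of all genes was itself at 0.33 in EY against N, 0.26 in EY against E, 0.18 in EY against Y and 0.13 in Y against N, and median-of-ratios scaling brought these to 0.01, 0.04, 0.02 and -0.03.

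EY against Y asks what the viral oncogenes add where YAP is already active. No E or N mouse is in either arm, though all 19 mice share 1 estimate of the spread and the genes were picked with results of these data known. Meiosin, Stag3, Zcwpw1, Tdrd1, Syce2 and Smc1b rose: 6 of the 9 genes were called higher, beside 1.07% of the genes tested (243 of 22745), and 0 of 9 lower, beside 0.928%. Smc1b reached 0.1 TPM in 0 of the N and Y mice and Meiosin in 2, so both passed the filter through the E and EY mice in which they are high. Their values here are therefore a description with no test. Stag3, Zcwpw1, Syce2 and Tdrd1 reached it in 7, 7, 8 and 6 of the N and Y mice, and the calls read here are theirs. After median-of-ratios scaling the shares of all genes were 0.541% higher and 1.24% lower, and without Y mouse 1 the genes called higher were 83. The same 6 genes had every one of the 6 EY mice above every one of the 3 Y mice, as had 11.1% of all genes. In whole tissue, a change in how many cells carry an mRNA and a change in mRNA per cell cannot be told apart, here and in every comparison that follows.

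Stag3 had the largest rise of the 9, with a log2 fold change of 6.40 (95% confidence interval 5.73 to 7.07, adjusted p = 6.8e-09), from a mean of 0.155 TPM in Y to 20.5 in EY. Its cohesin partner Smc1b, as a description, went from 0.0143 to 0.681 TPM, 47.6 times, with a log2 fold change of 2.63. Smc1b is a gene whose log2 fold change the added 0.1 TPM holds down, and on recovered reads it was 5.76. Y mouse 1 holds 4 of the 4 Smc1b reads of Y, and without it EY is at least 43.7-fold higher by a floor of 3 reads. It fell short of the thresholds of a call with 1 TPM added (log2 fold change 0.69) and with the E and N mice out of the model. The initiator Meiosin, also as a description, was higher by 5.57, or 103 times in mean TPM.

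Among the genes for recombination and synapsis, Zcwpw1 rose by 4.42 (3.70 to 5.14, adjusted p = 7.01e-07), 26.5 times in mean TPM, and Syce2 by 2.66 (2.09 to 3.24, adjusted p = 2e-05), 6.45 times. The piRNA scaffold gene Tdrd1 rose by 4.65 (3.60 to 5.70, adjusted p = 3.39e-05), 41.7 times, or 109.6 times without Y mouse 1, which holds 16 of the 22 reads of Y. The other genes were not called: Rec8 had a log2 fold change of 1.86 (-0.02 to 3.75, adjusted p = 0.215), Sycp3 of 1.09 (-0.01 to 2.19, adjusted p = 0.213) and Sycp1 of 0.79 (-0.10 to 1.69, adjusted p = 0.267). Rec8 had 2 reads over the 3 Y mice and 41 over the 6 EY mice, a ratio of 9.22 after division by depth with an exact (Clopper-Pearson) counting interval of 2.40 to 78.7, which covers counting error only.

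After median-of-ratios scaling the rises were 5.36 for Meiosin, 6.21 for Stag3, 4.23 for Zcwpw1, 2.49 for Syce2, 4.46 for Tdrd1 and 2.45 for Smc1b. The same 6 genes were past the thresholds of a call, Meiosin and Smc1b as a description. With 1 TPM added in place of 0.1 they were 3.18, 4.20, 2.93, 2.44, 2.36 and 0.69, in the same order. EY mouse 3 had the highest muscle signal of the series (below), and without it the 6 genes were past the same thresholds with log2 fold changes of 5.46, 6.33, 4.30, 2.699, 4.68 and 2.42 in that order.

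**Figure D2:**
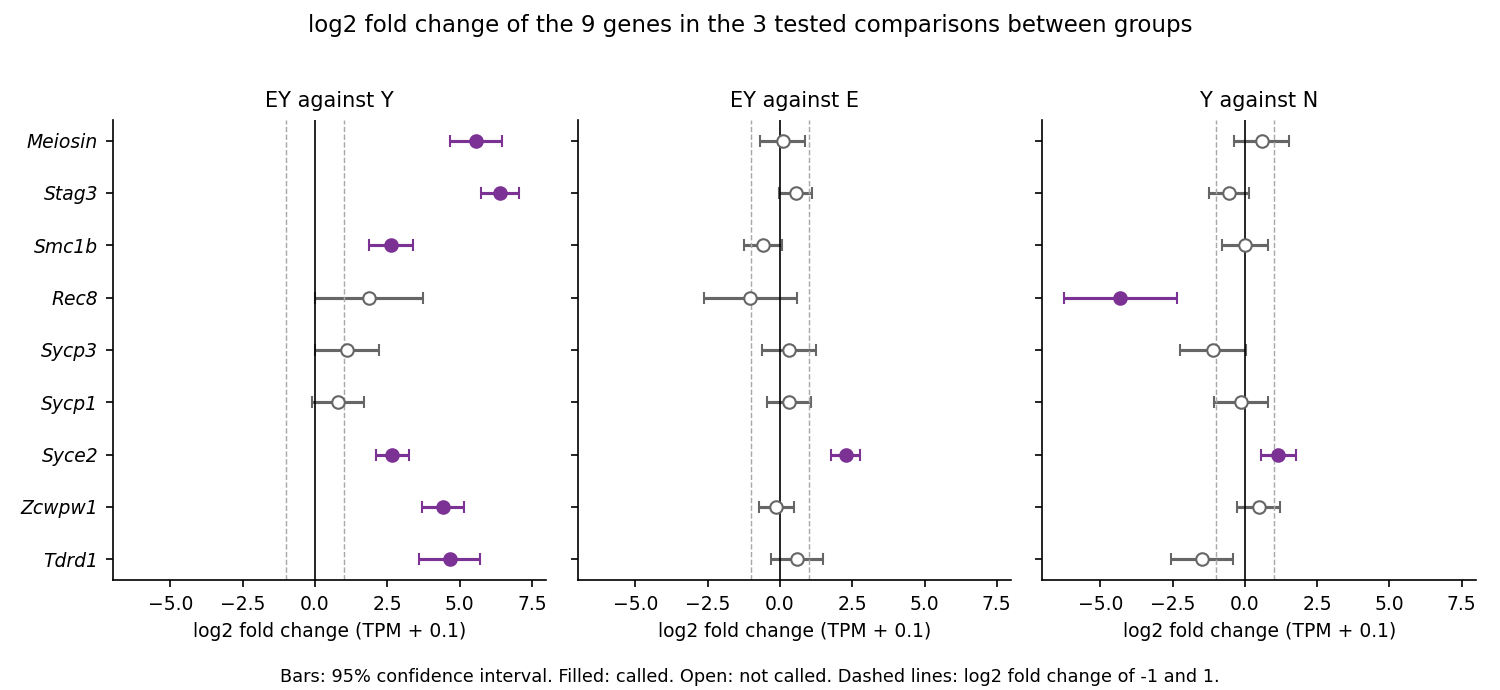
Log2 fold change of the 9 genes (horizontal axes, points) with its 95% confidence interval (bars) in EY against Y, EY against E and Y against N, filled where called. In EY against Y 6 genes are past the thresholds of a call, between 2.63 and 6.40, with Meiosin and Smc1b as a description. Syce2 alone is called in EY against E (2.27), and Rec8 lies at -4.30 in Y against N.

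EY against E asks what active YAP adds where the viral oncogenes are on, and it shares the E mice with the contrast that chose the genes. Syce2, the central element gene, rose by 2.27 on the log2 scale (1.78 to 2.76, adjusted p = 9.94e-07), from a mean of 6.08 to 28.4 TPM, in 6 of 6 EY mice above every E mouse, and it rose by 2.01 after median-of-ratios scaling. It was the 1 gene of the 9 called higher, beside 7.82% of all genes, and 0 of the 9 were called lower, beside 4.99%. After median-of-ratios scaling 1000 of the 22745 genes were called higher and 1572 lower. The other 8 had log2 fold changes between -1.02 for Rec8 and 0.59 for Tdrd1, with intervals that reached below 0 and above it. The interval of Meiosin, at 0.09, ran from -0.69 to 0.88, that of Stag3, at 0.54, from -0.03 to 1.12, and that of Zcwpw1, at -0.12, from -0.74 to 0.49, so that differences within those bounds would go unseen at this group size. Meiosin turned to -0.17 after median-of-ratios scaling.

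Y against N asks what active YAP does alone, and it shares the N mice with the contrast that chose the genes. That choice favours genes low in these N mice, which leans towards a rise in Y, so the rise of Syce2 is given as a description. Syce2 and Rec8 were called, in opposite directions: 1 of the 9 higher, beside 3.47% of all genes, and 1 of the 9 lower, beside 1.11%. After median-of-ratios scaling these shares were 2.30% and 1.72%. In the main fit 790 genes were called higher and 252 lower, and without Y mouse 3 639 genes were called, 505 of them higher. Syce2 rose by 1.16, from 1.93 ± 0.491 TPM in N (SD, n = 5) to 4.40 ± 0.861 in Y (SD, n = 3), with 3 of 3 Y mice above every N mouse. It was close to the thresholds of a call: it fell short after median-of-ratios scaling (0.97), after quantile normalization (1.02), on recovered reads (1.11), with 1 TPM added (0.89), with the 3 N mice of 1 genotype (1.17) and with the Y and N mice alone in the model. When 1 mouse was left out, it was past them without N mouse 2, E mouse 1, E mouse 5 or EY mouse 6 and fell short without each of the other 15, with log2 fold changes of 1.04 to 1.32.

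Rec8 fell by 4.30 on the log2 scale in Y (95% interval -6.25 to -2.36, adjusted p = 0.00395), with 2 reads over the 3 Y mice and 294 over the 5 N mice, and each Y mouse was below each N mouse. Divided by depth the ratio of the reads was 0.0125, with an exact counting interval of 0.00151 to 0.0456, and without N mouse 2 it was 0.0275. N mouse 2 had 187 of the 294 reads, and it also had the highest muscle marker sum of the N mice (229.8 TPM). EY mouse 3, with a muscle sum of 1229.35 TPM, had Rec8 at 1.39 TPM, and Y mouse 2, with 124.4, had it at 0. Without N mouse 2 the log2 fold change was -3.70 and the call was kept. The call was lost without N mouse 5 (adjusted p = 0.0101), Y mouse 2 (0.0213) or Y mouse 3 (0.0269), with 1 TPM added (-1.92), with the 3 N mice of 1 genotype (-4.47) and with the Y and N mice alone, and over all alternatives the adjusted p lay between 0.00128 and 0.0269. The log2 fold changes of the other 7 genes ran from -1.48 for Tdrd1 (adjusted p = 0.0589) to 0.58 for Meiosin, and in each of them the mice of Y and N overlapped.

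The interaction (EY minus E minus Y plus N) asks whether the effect of the viral oncogenes differs with active YAP. It contains E against N, the contrast that chose the genes, in full, so its values are a description of these genes. With limma 0 of the 9 genes were called, beside 0.176% of all genes (40 of 22745), and voom on recovered reads called 0 of the 9. The count of all genes was 73 without EY mouse 3 and 118 with voom, 3 of them higher in each case. Nothing is read from these counts, or from the next, since the interaction contains the contrast that selected the genes. At an unadjusted p under 0.05 there were 4 of the 9, Stag3, Syce2, Tdrd1 and Rec8, and 3072 of the 22745 genes tested. Their interaction terms were 1.08, 1.11, 2.07 and 3.28, and those of Meiosin, Zcwpw1 and Smc1b were -0.49, -0.60 and -0.60.

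On the scale of exon-length TPM, where genes can be compared, the order of the 9 differed between groups. In N the highest mean levels were 7.20 ± 1.86 for Syce2, 5.29 ± 6.74 for Rec8 and 3.94 ± 1.33 for Sycp3 (SD, n = 5), and Meiosin, at 0.0626, and Smc1b, at 0.102, were the lowest. Without N mouse 2 the mean of Rec8 was 2.34, below that of Sycp3. In E the order was Stag3, at 36.6 ± 12.8, Zcwpw1, at 28.7 ± 6.74, Syce2, at 22.2 ± 7.49, and Meiosin, at 17.5 ± 9.22 (SD, n = 5), where each was apart from the next by less than its own SD. In EY Syce2 led at 103 ± 16.2, then came Stag3 at 51.0 ± 10.1 and Zcwpw1 at 26.7 ± 8.83, each apart from the next by more than its SD (n = 6). Tdrd1 at 17.5 ± 5.09 and Meiosin at 17.2 ± 6.18 followed, and Smc1b (5.03), Sycp3 (4.16) and Sycp1 (3.55) differed by less than their SD. Rec8 was the lowest in EY, at 0.676.

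Each meiotic cohesin subunit has a mitotic counterpart that serves dividing cells, and the share of the meiotic one in the summed exon-length TPM is a level within a mouse. Stag3 made up 0.702% to 1.66% of Stag1, Stag2 and Stag3 together in the N mice and 0.225% to 0.841% in the Y mice, and 29.5% to 45.9% in the E mice and 27.7% to 40.6% in the EY mice. At a median of 50.04 TPM in EY it stood beside Stag2, at 62.0, and above Stag1, at 30.3. Of Smc1a and Smc1b together Smc1b made up 0% to 0.700% (N mice) or 0% to 0.457% (Y mice), 7.73% to 11.6% (E mice) and 2.33% to 10.2% (EY mice), where the 2 highest were again mice 3 and 4. The kleisin differed: Rec8 made up 1.46% to 17.4% of Rec8 and Rad21 in N mice and 0.280% to 3.21% in E mice, but 0% to 0.232% with active YAP alone and 0.0554% to 0.985% with both transgenes. Rad21, the mitotic kleisin, had medians of 68.9, 101.8, 91.9 and 175.5 TPM (order N, E, Y, EY).

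**Figure D3:**
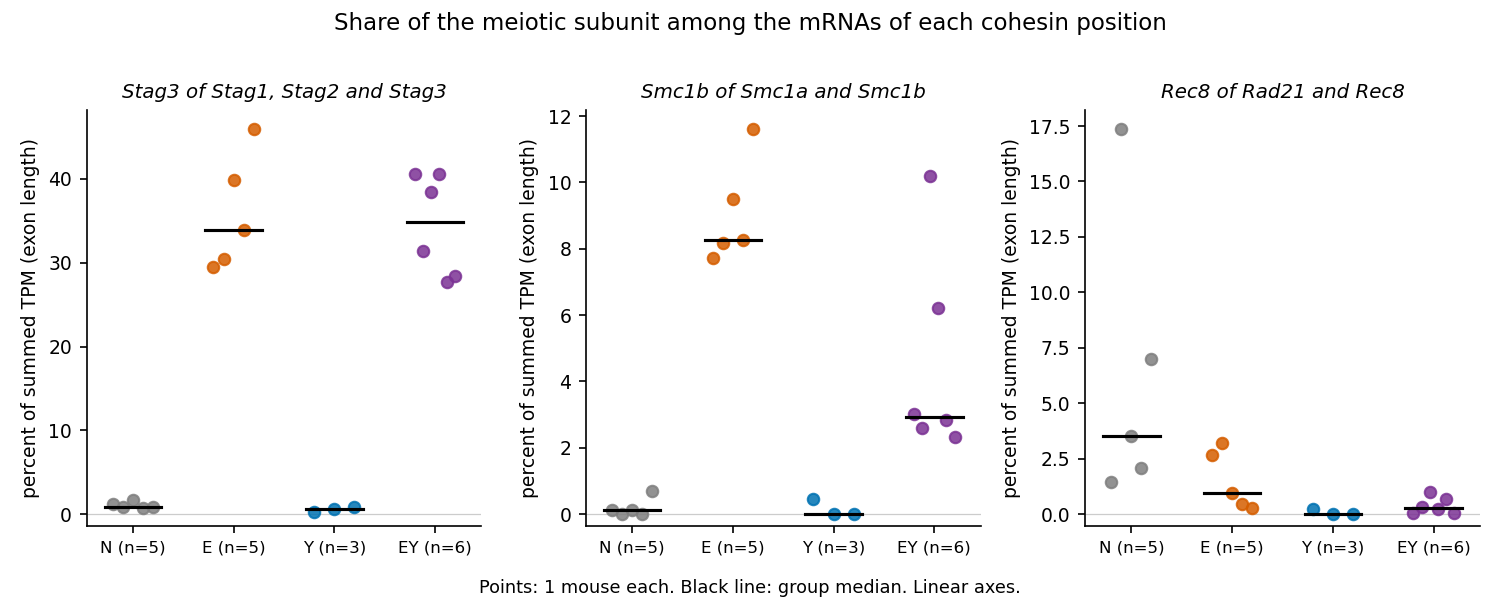
Percent of summed exon-length TPM (vertical axes, linear) taken by the meiotic subunit at each of 3 positions of cohesin, by mouse, with the group median. Stag3 lies at 27.7% to 45.9% in E and EY mice and at 1.66% or less in N and Y, Smc1b lies at 2.33% to 11.6% in E and EY and at 0.700% or less in N and Y, and Rec8 is highest in N.

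The 6 genes called in EY against Y also varied among mice of 1 group. E mouse 1 was the lowest of the 5 E mice for each of the 6, and E mouse 5 the highest for 5 of them, with Meiosin highest in E mouse 4. EY mouse 6 was the lowest EY mouse for 5 of the 6, and EY mouse 5 the lowest for Tdrd1. As a description over the 11 E and EY mice, with no p, the log2 deviations from the group means had a Pearson r of 0.246 to 0.912 over the 15 pairs of the 6 genes, with a median of 0.676 and each of the 15 above 0. The rank correlation (Spearman rho) of the same pairs ran from 0.173 to 0.891. The E2F target Ccne2, which encodes cyclin E2, was also lowest in E mouse 1, at 12.7 TPM against 29.8 to 36.0 in the other E mice, and its r with the 6 genes was 0.327 to 0.820 (rho 0.0636 to 0.791), lowest for Tdrd1. The proliferation marker Mki67 had an r of -0.322 to 0.330 with the 6 genes, and Pcna, from the same list of proliferation markers, one of 0.294 to 0.769 (rho 0.1 to 0.527). EY mouse 6, low in 5 of the 6, had the highest Mki67 level, at 188 TPM, and E mouse 1, lowest of E in each of the 6, had the lowest Mki67 and Pcna of the E mice, at 59.7 and 187 TPM. The genes of a mouse share 1 library and its depth, which were not tested as a source of these values.

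**Figure D4:**
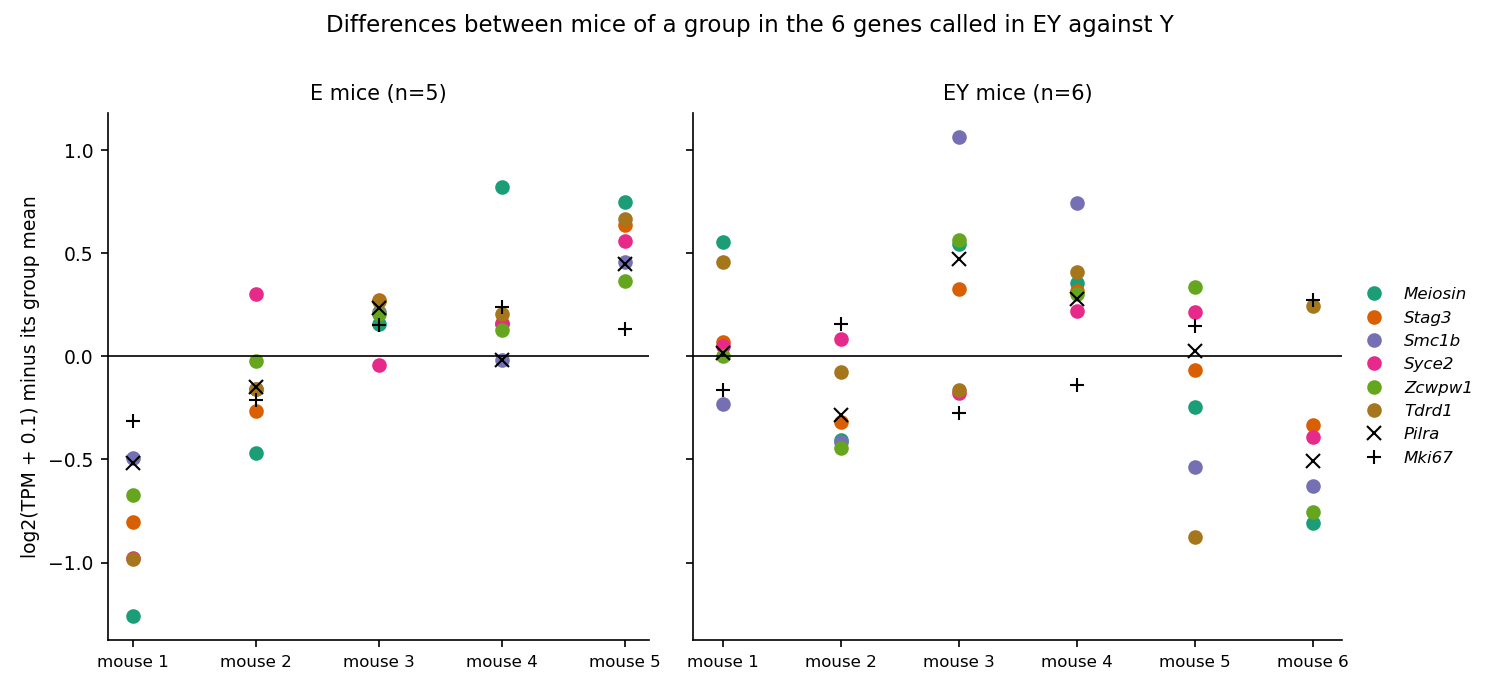
Log2(TPM + 0.1) minus its mean in the group (vertical axis) for the 6 genes, for Pilra and for Mki67 in each E and EY mouse. E mouse 1 and EY mouse 6 are low in most of the 6 genes, and Mki67 (plus signs) is above its group mean in EY mouse 6.

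The genes outside the 9 whose profile over the 19 mice was most like the mean standardised profile of the 9 were Ajm1 (r 0.941), Ddx43 (0.923), Klhl22 (0.922), Rad51c (0.919) and Iho1 (0.916). These r mostly follow the differences between groups: on deviations from the group means they were 0.532, 0.554, 0.346, 0.567 and 0.0610. Among the 9 themselves r ran from 0.955 for Stag3 to 0.0702 for Rec8. Rad51c encodes a strand exchange factor used in mitotic and meiotic repair, and Iho1 encodes a chromosome axis protein needed for meiotic DNA breaks. Ddx43, a helicase gene of the germline, had means of 0.0701, 1.66, 0.133 and 2.24 TPM (order N, E, Y, EY). Ajm1, a junction protein gene, had 3 reads over the 3 Y mice and 412 over the EY mice, and Klhl22, an adaptor of a ubiquitin ligase, had means of 1.87, 3.56, 1.42 and 4.78 TPM in the same order. These 5 genes were selected on their profile over the same mice, so their differences between groups are a description.

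Of the genomic neighbours of the 9 that are named here, Pilra was the 1 past the thresholds of a call in EY against Y. It overlaps Zcwpw1 on the opposite strand and encodes an inhibitory receptor of myeloid cells. Pilra had means of 0.663, 7.12, 0.369 and 7.04 TPM (order N, E, Y, EY) and a log2 fold change of 4.28 in EY against Y. Its deviations followed those of Zcwpw1 over the 11 E and EY mice with an r of 0.944, and those of Stag3, which it does not overlap, with an r of 0.932. Whether the reads were counted by strand is not given in the sources used here, so reads of Zcwpw1 and Pilra cannot be told apart where the genes overlap. The summed leukocyte markers lay between 7.13 and 18.0 TPM in E and between 8.17 and 14.8 in EY, beside 6.30 to 27.7 in N and 8.18 to 9.72 in Y. The neighbours were named after their values were seen, so their differences between groups are a description. Gcdh, which overlaps Syce2, and Chpt1, which overlaps Sycp3, lay at -0.06 and 0.23 in EY against Y. Mepce, 143 bases from Zcwpw1, Gpc2, 235 bases from Stag3, and Six5, 497 bases from Meiosin, lay at 0.59, 0.91 and 0.80 there and were not called, nor was Ipo4, 5 bases from Rec8, at 0.21. Ribc2, 114 bases from Smc1b, had 0 reads over N and Y, 20 over E and 4 over EY. Sycp1 and Smc1b overlap pseudogenes on the opposite strand that were not analysed here.

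Genes of meiosis were also taken from lists by role, which include the 9 genes, so that list counts and medians partly restate them. Of the genes tested, 1 of 4 in the entry list, 4 of 6 in the cohesin and axis list, 2 of 3 in the synaptonemal list, 1 of 18 in the recombination list and 1 of 8 in the piRNA list are among the 9. In EY against Y 1.07% of all genes were called higher. Of 6 genes of meiotic entry, 4 were in the table and tested, and Stra8 and Dazl were not analysed here. Meiosin was the 1 past the thresholds of a call in EY against Y, and its values there are a description with no test (above). The median log2 fold change of the 4 was 1.10, or 2.13 with Rbm46 at its bound, beside 0.18 for all genes. Rbm46, an RNA-binding protein gene needed to enter meiosis, had 0 reads in the 5 N and 3 Y mice, 25 to 56 in each E mouse and 1 to 35 in each EY mouse. Against a floor of 3 reads over the N group E was at least 73.0-fold higher, and against the same floor over Y, EY was at least 9.30-fold higher, or at least 4.77-fold without EY mouse 3, which holds 35 of the 62 reads. In EY against E the log2 fold change of Rbm46 was -1.702. This is a description with no test, since Rbm46 passed the filter through the E and EY mice alone.

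Of 11 genes of meiotic cohesin and the chromosome axis, 7 were in the table and 6 tested, and 4 were past the thresholds of a call upwards in EY against Y. These were Stag3, Smc1b, which is a description there (above), Sgo2a and Trip13, the last named after its values were seen. Their list had a median of 1.48, and over the alternatives it had 1 to 4 called, with 2 after median-of-ratios scaling. Sgo2a, which protects cohesin at centromeres, rose by 1.09 in EY against Y and by 1.6998 in Y against N (adjusted p = 0.00531 and 9.16e-05), the first of these lost, among other settings, after median-of-ratios scaling (0.92) and without Y mouse 1, 2 or 3 or EY mouse 2, 4 or 6. Sycp2, the axis partner of SYCP3, had 2, 1, 0 and 17 reads over the 4 groups (order N, E, Y, EY), was not tested and is likewise named after its values were seen. Of 6 genes of the central part of the synaptonemal complex 3 were tested, and Syce2 was the 1 called higher, beside a list median of 1.01.

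Of 30 genes of meiotic recombination, 23 were in the table, 18 were tested and 3 were called higher in EY against Y, with a list median of 0.41. These were Zcwpw1, Iho1, which is also selected on its profile (above), and Brme1. Iho1 and Brme1 are described here. Iho1 had 1 read over the N mice and 0 over Y, 15 to 37 in each E mouse and 26 to 58 in each EY mouse, and EY was at least 40.0-fold higher than Y by the floor of 3 reads. Brme1, a partner of the BRCA2 complex in meiosis, reached 0.1 TPM in N mouse 4 alone of the N and Y mice (0.260 TPM). It passed the filter through the E and EY mice, so its values are a description with no test. Its log2 fold change was 2.10, on 2 reads over Y and 100 over EY. After division by depth the ratio was 22.5, with an exact counting interval of 6.07 to 188. Brme1 fell short of the thresholds of a call, among other settings, after median-of-ratios scaling (1.95) and without Y mouse 1, 2 or 3 or EY mouse 1, 2, 4 or 6. Prdm9, whose marks ZCWPW1 reads, had means of 2.09, 1.95, 2.17 and 1.94 TPM (order N, E, Y, EY). Spo11, which cuts the DNA, had 0.518, 0.450, 0.225 and 0.0928 TPM, and Dmc1, the meiotic strand exchange protein, had 4, 7, 0 and 12 reads over the same groups. Prdm9, Spo11 and Dmc1 are named after their values were seen.

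Of 19 piRNA and germ granule genes 8 were tested and Tdrd1 was the 1 called higher in EY against Y, with a list median of 0.73. Of 8 genes of telomere attachment 5 were tested and limma called 0 in EY against Y, with 0 to 1 over the alternatives. Of 28 genes of germ cell identity and late germ cells 10 were tested and 0 were called higher or lower in EY against Y, with a list median of 0.18, the same as that of all genes. Kit, the receptor of germ cell precursors, pigment cells and mast cells, was lower in Y than in N by the test, by -1.28 (adjusted p = 0.00915), a call lost without any 1 of 15 of the 19 mice.

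**Figure D5:**
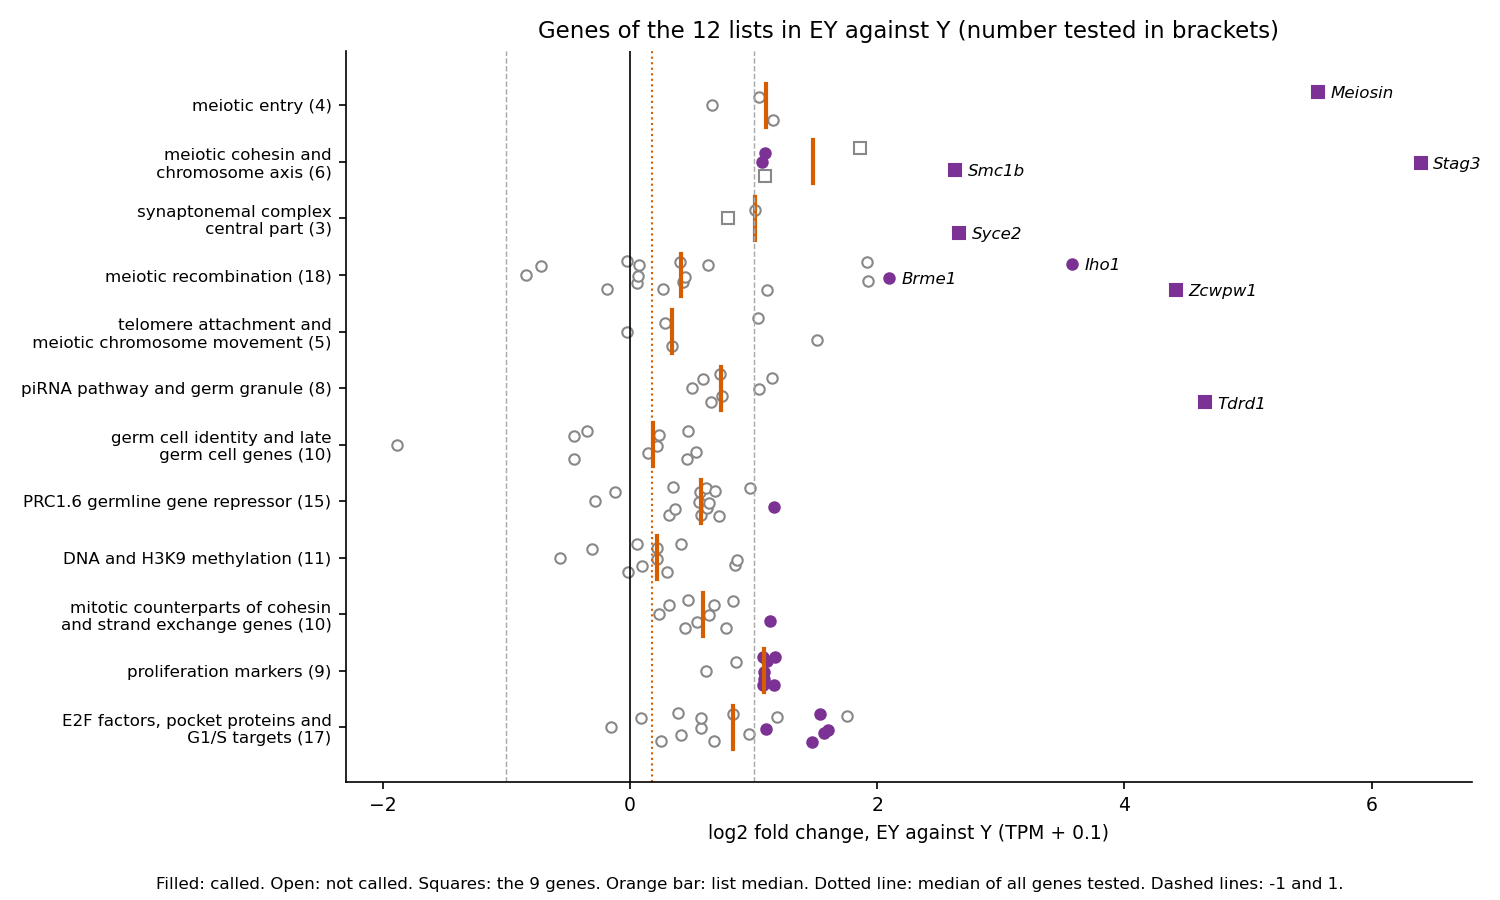
Log2 fold change in EY against Y (horizontal axis) of each tested gene of 12 lists (vertical axis), filled where called, with the list median (orange bar) and the median of all genes (dotted line, 0.18). Stag3, Meiosin, Tdrd1, Zcwpw1 and Iho1 lie at 3.58 or above, and the genes called among proliferation markers and E2F targets lie between 1 and 2.

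The repressors of germline genes were read as well. Of 15 genes of PRC1.6, all tested, limma called 0 higher in E against N (0 to 3 over the alternatives), 0 in Y against N (0 to 6), 1 in EY against Y (0 to 7) and 7 in EY against N, where 12.6% of all genes were called higher. Mga, its DNA-binding scaffold, rose by 1.17 in EY against Y (adjusted p = 0.00112), from 6.47 to 14.4 TPM, a call lost after median-of-ratios scaling (0.99), after quantile normalization and without Y mouse 1. E2f6 had means of 2.15, 3.38, 4.10 and 8.09 TPM (order N, E, Y, EY) and rose by 1.23 in EY against E (adjusted p = 1.22e-07), or by 0.97 with no call after median-of-ratios scaling. Of 11 tested genes of DNA and H3K9 methylation limma called 0 in EY against Y, with 0 to 2 over the alternatives. Dnmt1, the maintenance methyltransferase, had means of 6.21, 11.2, 8.07 and 14.7 TPM (order N, E, Y, EY), and its cofactor Uhrf1 of 9.25, 16.9, 16.3 and 29.7.

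Proliferation markers differed between the groups too. Of 9 tested proliferation markers 8 were called higher in E against N, 7 in Y against N and 7 in EY against Y, beside 1.16%, 3.47% and 1.07% of all genes. Leaving out 1 mouse gave 2 to 7 calls in EY against Y. Mki67 had means of 21.7, 75.1, 74.1 and 157 TPM (order N, E, Y, EY) and rose by 1.79 in Y against N (adjusted p = 5.09e-06) and by 1.08 in EY against Y (adjusted p = 0.001), the latter lost without Y mouse 1. Pcna ranged over 187 to 412 TPM in E and 171 to 294 in Y, and Mcm5 over 20.6 to 41.0 and 18.8 to 23.7. In EY against Y the list median was 1.08, and after median-of-ratios scaling 0 of the 9 markers were called, with Mki67 at 0.90, Pcna at 0.93 and Mcm5 at 0.98.

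Of 17 genes of E2F factors, pocket proteins and G1/S targets 8 were called higher in E against N, 3 in Y against N and 5 in EY against Y, beside the same shares of all genes, with 4 called in EY against Y after median-of-ratios scaling. Over the alternative settings these counts ran from 4 to 11, 0 to 8 and 4 to 9 in that order. Leaving out 1 mouse gave 3 to 6 in EY against Y. In EY against Y, Ccne2 rose by 1.57 and Ccne1, which encodes cyclin E1, by 1.48 (adjusted p = 0.00134 and 0.00161). The call of Ccne2 was lost without Y mouse 1, and that of Ccne1 without Y mouse 2 and with the Y and EY mice alone in the model. Cdkn2a, which encodes p16, had means of 0.0457, 0.497, 0.0584 and 0.508 TPM (order N, E, Y, EY) and was not called in EY against Y (1.75, adjusted p = 0.0599). Smc1a, the mitotic counterpart of Smc1b, with means of 14.7, 20.2, 20.9 and 30.4 TPM (order N, E, Y, EY), lay at 0.54 in EY against Y and was not called.

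Signal of other cell types was present and uneven. The markers named here as highest or most abundant are so in the deposited TPM, which divide by the length of the whole gene, and were not ranked with exon length. The 8 listed skeletal muscle markers summed to between 5.79 TPM, in Y mouse 1, and 1229.35 TPM, in EY mouse 3, with Acta1 the most abundant and a median of 154 in EY beside 43.9 in N, 29.9 in E and 12.3 in Y. Myod1 had no signal in any N or Y mouse. The 6 fibroblast markers, with the highest mean for Dcn in N, E and Y and for Col3a1 in EY, summed to medians of 86.3, 82.5, 34.5 and 72.7 TPM (order N, E, Y, EY). The 5 endothelial markers, led by Egfl7, summed to medians of 0.911, 1.25, 1.58 and 2.6998 TPM in the same order, with the highest sum, 6.66, in EY mouse 3. Likewise the 7 leukocyte markers, with the highest mean for Cd207 in N, E and Y and for Csf1r in EY, had medians of 12.5, 9.47, 8.90 and 10.2 TPM, with Ly6g at 0 throughout N, E and Y and above 0 in 5 of the 6 EY mice, and the 4 taste cell markers, led by Tas1r3, of 7.91, 7.05, 4.72 and 5.79. Of 5 salivary acinus markers 3 were in the table, with the highest mean for Bpifa2 in N and for Aqp5 in the other groups, with medians of 0.560, 0.202, 0.702 and 0.794 and Bpifa2 at 0 throughout E, Y and EY. The part of these cells in the levels of the 9 genes was not tested.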

How the data were processed

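The values are TPM, deposited by the authors. Per the submitters' processing notes, paired-end reads were aligned to GRCm39 with STAR 2.7.9, sorted with SAMtools 1.7 and counted with HTSeq 0.13.5, and the submitters used DESeq2 1.34.0 for their own comparisons. How counts became TPM is not given in the sources used here. Whole read counts were recovered from the TPM of each mouse for 24680 of the 24680 genes above 0, each within 0.001 of a whole number. The 19 mice entered 1 limma 3.58.1 model (R 4.3.3) of 4 group means on log2(TPM + 0.1), with trended moderation and Benjamini-Hochberg adjustment over 22745 genes. Tables and figures used Python 3.11.15 with numpy 2.4.6, pandas 2.3.3, scipy 1.17.1 and matplotlib 3.10.9. The rule takes the 9 listed genes across the 4 groups. Other genes are named by rule: in each list up to 4 called in E against N, EY against Y or Y against N, by absolute log2 fold change in EY against Y, with genes that stand for a role, cell type markers and the 5 genes most like the 9. The genes and lists were chosen with earlier results of these data known.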

Additional observations from a re-analysis of the deposited data

Results flagged for a closer look

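Each group of 5 or 6 mice was checked for 1 mouse apart from the rest by Dixon's ratio, for the 9 genes and for the summed markers of each cell type. Of 54 groups checked 10 had such a mouse. A rate of about 1 in 20 by chance holds for independent values with a normal distribution. Neither was tested here, and some of the groups share genes, so the count is not compared with that rate. Among the 9 genes these were Sycp1 in EY mouse 1 (0.511 TPM), Sycp3 in N mouse 1 (0.334 TPM), Smc1b in N mouse 5 (0.0495 TPM) and Rec8 in N mouse 2 (14.9 TPM). The skeletal muscle markers were apart in N mouse 2 (229.8 TPM), E mouse 5 (121.3 TPM) and EY mouse 3 (1229.35 TPM). The salivary gland acinus markers were apart in N mouse 3 (7.40 TPM) and E mouse 2 (1.54 TPM), and the male germ cell markers in N mouse 1 (0.358 TPM). That last sum is mostly Sycp3, so the low Sycp3 value of N mouse 1 is counted in both.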

How the results depend on the processing

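The 9 genes were read again under other settings and with each of the 19 mice left out in turn. In EY against Y 6 genes were called and 5 to 6 under the alternatives, and in EY against E 1 was called throughout. The count in EY against Y includes Meiosin and Smc1b, which are a description there. The described contrasts had 6 past the thresholds each, with 4 to 6 in E against N and 5 to 7 in EY against N under the alternatives. The interaction had 0 calls throughout, and it cannot be run with only the groups compared. TPM with exon length was chosen after seeing the data, and Sycp1 is absent under the filter at 1 TPM.

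In Y against N 2 genes were called. There were 0 calls with 1 TPM added, with the 3 N mice of 1 genotype and with only the groups compared, and 1, Rec8, after median-of-ratios scaling, after quantile normalization and with voom on recovered reads. The cause was not tested. Leaving out 1 mouse gave 0 to 2 calls, for example 0 without N mouse 5 and 2 without N mouse 2.

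Some log2 fold changes changed sign. In EY against E, Meiosin went to -0.165 after median-of-ratios scaling, -0.165 after quantile normalization (-0.1646) and -0.0437 with voom, and over the left-out mice it ran from -0.220 to 0.301. Zcwpw1 went to 0.0283 with mouse number as a replicate block, and over the left-out mice it ran from -0.291 to 0.0283. In Y against N, Sycp1 went to 0.262 with 0.01 TPM added, 0.0560 after quantile normalization, 0.703 with voom (0.7025) and 0.332 with exon length, and over the left-out mice it ran from -0.385 to 0.136. Smc1b went to -0.0834 with 0.01 TPM added, -0.0186 after median-of-ratios scaling, -0.178 with voom and -0.0684 with exon length, and over the left-out mice from -0.166 to 0.110. The interaction of Sycp1 went to -0.402 with voom. The cause of these changes of sign was not tested. Reads are few for Meiosin and Smc1b in N (6 and 8) and in Y (8 and 4).

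With mouse number as a replicate block, EY against Y had 6 calls, EY against E 1, Y against N 2 and the interaction 0. Mice of the same number in different groups had a mean r of 0.0157 over 24 pairs, with 0 of them over 0.1.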

Other observations

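The suprabasal keratin Krt13 had a mean of 71112 TPM in the 5 N mice, 64482 in the 5 E mice, 42244 in the 3 Y mice and 20862 in the 6 EY mice. It fell by 1.61 on the log2 scale in EY against E (adjusted p = 0.000199), and its log2 fold changes of -0.15 in E against N, -0.76 in Y against N and -0.99 in EY against Y were not called.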
